A study of Rattus norvegicus with 6 samples.

Results

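The genes described here encode the proteins of the cytosolic ribosome in the rat heart. They were taken by name from an RNA-seq count table: symbols that begin with Rpl or Rps and a number, together with Rplp0, Rplp1, Rplp2 and Rpsa, without ribosomal S6 kinases and pseudogene names. A gene needed at least 600 reads summed over the 6 libraries, and a symbol found in several rows was represented by its largest row. This gave 76 genes of 32883 named rows, 43 of the large and 33 of the small subunit. The study compared the hearts of wild-type male Sprague–Dawley rats, 8 weeks old and weighing 250 to 300 g. The 3 saline rats had saline under the skin daily for 7 days, and the 3 ISO rats had ISO at 1.5 mg/kg/day by the same route. ISO is taken to be isoproterenol, a drug that activates beta-adrenergic receptors. The model was set up for myocardial hypertrophy and fibrosis, and every library came from a different rat.

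Each cytosolic ribosome joins a small subunit, which reads the messenger RNA, to a large subunit, which forms the peptide bonds. Most of the proteins are needed in equal numbers around the ribosomal RNA, and the genes are known to be regulated as a set. Many of their messenger RNAs begin with a C followed by an unbroken run of pyrimidines, the terminal oligopyrimidine tract, through which the kinase mTOR controls their translation. Growth of heart muscle cells under adrenergic drive is known to involve making more ribosomes.

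All 76 genes passed the filter on low counts. Just above the limit of 600 reads were Rps18l1 with 992, Rpl10l with 1389 and Rps6 with 1620 reads, and just below it were Rplp2 with 510 and Rpl8 with 265. The name rule found 84 rows, and the other rows under the limit held 20 reads (Rpl39l) or fewer. RefSeq lists 77 protein-coding symbols of this kind for the rat. Of these, 65 were among the 76 genes, 4 lay under the limit and 8 were not found under their symbol in the table. For some of the 8, rows that RefSeq names as their pseudogenes held many reads. Such rows of Rps14, Rpl22 and Rps13 held 39183, 9511 and 4151 reads. The set therefore does not cover every protein of the ribosome, and a gene such as Rps6, whose product is the S6 kinase target of the small subunit, was represented by a row with few reads.

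The start of the message was examined first, because the tract is what these genes are best known to share. Of the 76 genes, 58 had a start site in the RefSeq table (assembly GRCr8). A run of at least 8 C or T bases on the sense strand, within the 30 bases centred on that start, was found in 34 of the 58 (58.6%) and in 11.4% of all 27457 symbols of the table. The stricter form, a C at the annotated start followed by at least 4 pyrimidines, was found in 18 of 58 (31.0%) against 2.63%. The windows below run from 15 bases before the start to 15 bases from it, with capitals for the longest run where it reached 8 bases. Rpl34 has the longest run and Rpl35 another long one that holds the start, Rplp0 and Rplp1 are the stalk proteins with many reads, and Rps23, Rpl27a and Rps18 had some of the smallest p-values. Rpl3 and its muscle copy Rpl3l have no such run in their windows, and Rps27 and its second copy Rps27l differ in it.
Rpl34 (chr2:221962269-221962298, minus strand): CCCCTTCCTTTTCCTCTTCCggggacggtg
Rpl35 (chr3:43165907-43165936, minus strand): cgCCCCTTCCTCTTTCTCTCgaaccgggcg
Rplp0 (chr12:46718376-46718405, minus strand): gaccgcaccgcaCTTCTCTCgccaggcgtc
Rplp1 (chr8:71290858-71290887, minus strand): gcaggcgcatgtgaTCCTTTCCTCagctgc
Rps23 (chr2:23814502-23814531, plus strand): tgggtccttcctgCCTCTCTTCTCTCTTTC
Rpl27a (chr1:172974558-172974587, plus strand): cgagacttggtgggCTCCTCCCTCTTTCTT
Rps18 (chr20:4933730-4933759, plus strand): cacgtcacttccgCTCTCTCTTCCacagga
Rpl3 (chr7:113507976-113508005, minus strand): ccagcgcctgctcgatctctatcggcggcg
Rpl3l (chr10:14258431-14258460, plus strand): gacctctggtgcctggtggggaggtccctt
Rps27 (chr2:177964592-177964621, minus strand): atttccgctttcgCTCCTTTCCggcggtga
Rps27l (chr8:76443643-76443672, plus strand): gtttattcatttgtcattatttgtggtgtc

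A window without a run says only that these letters are not near the annotated start. In the 300 bases from 250 before to 50 after the start, CCGGAAG, a core of ETS factor sites, was present on either strand in 29.3% of the 58 genes against 9.22% of all symbols. AAGATGG, a core of YY1 sites, was present in 12.1% against 7.30%. Neither share was the highest among the lists compared here: CCGGAAG was present in 32.8% of mitochondrial ribosomal protein genes, 41.5% of ribosome assembly factors and 41.7% of genes of RNA polymerases I and III, and AAGATGG in 25.9% of the mitochondrial genes. These matches describe the letters and are not evidence of binding.

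The libraries held 14880391 to 17299589 reads, and the genes of the set drew 251329 to 396125 of them. Heart muscle markers were abundant in all 6, with Myh6, the alpha myosin heavy chain, between 10380 and 23373 CPM (the library-size scaled read count after TMM scaling, used for all levels here). Markers of some other cells moved with the groups, and those of others overlapped between them. The 4 endothelial markers summed to 703 to 760 CPM in saline and 617 to 744 CPM in ISO. The 5 smooth muscle and pericyte markers summed to 524 to 573 against 553 to 660 CPM. The 6 fibroblast markers summed to 2851 to 3681 CPM in saline and 6729 to 16904 CPM in ISO, with no overlap in any of the 6, and the 7 macrophage markers to 247 to 288 against 422 to 722 CPM, with no overlap in any of the 7. The 7 cardiomyocyte markers summed to 45312 to 55380 CPM in saline and 28537 to 40160 in ISO. In 3 of the 7 the ISO libraries lay below saline, and the other 4 overlapped. Tnnt2 (0.07) and Tnni3 (0.01) had positive log2 fold changes, and the other 5 had negative ones. ISO replicate 1 alone held the atrial genes Myl7 (70.6 CPM, against 0 to 1.56 elsewhere) and Sln (41.9 against 0 to 0.82). Of the other atrial markers, Myl4 and Bmp10 were also highest there. Nppa was not, at 1124, 1484 and 900 CPM in ISO replicates 1 to 3 against 42.8 to 217 CPM in saline. In whole heart RNA, a shift in the share of cells and a change of RNA per cell cannot be told apart, and the part of these shifts in the results was not tested.

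Most ribosomal protein genes had somewhat higher values in ISO hearts than in saline hearts, but few passed a test and many overlapped between the groups. Of 76 genes, 67 had a positive log2 fold change, where 52.3% of all tested genes did. Their median was 0.32, which is 24.5% higher, against 0.02 over all tested genes, the quartiles of the set were 0.19 and 0.46, and its values ran from −0.87 to 1.34. Rpl3, a core protein of the large subunit near its catalytic centre, rose, and it alone passed the test (edgeR quasi-likelihood test, Benjamini-Hochberg adjusted p under 0.05). That is 1 higher and 0 lower of 76, while over all tested genes 2.97% were called, 1.47% higher and 1.5% lower. At an adjusted p under 0.1, 14 of 76 were higher and 0 lower, where 4.86% and 4.47% of all tested genes were. At an unadjusted edgeR p under 0.05, 32 of 76 were higher and 0 lower, where the background was 12% higher and 10.9% lower. All 3 ISO libraries lay above all 3 saline libraries in 31 genes and below them in 0, where 14.1% and 14.6% of all tested genes did so, and the other 45 overlapped.

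**Figure D1:**
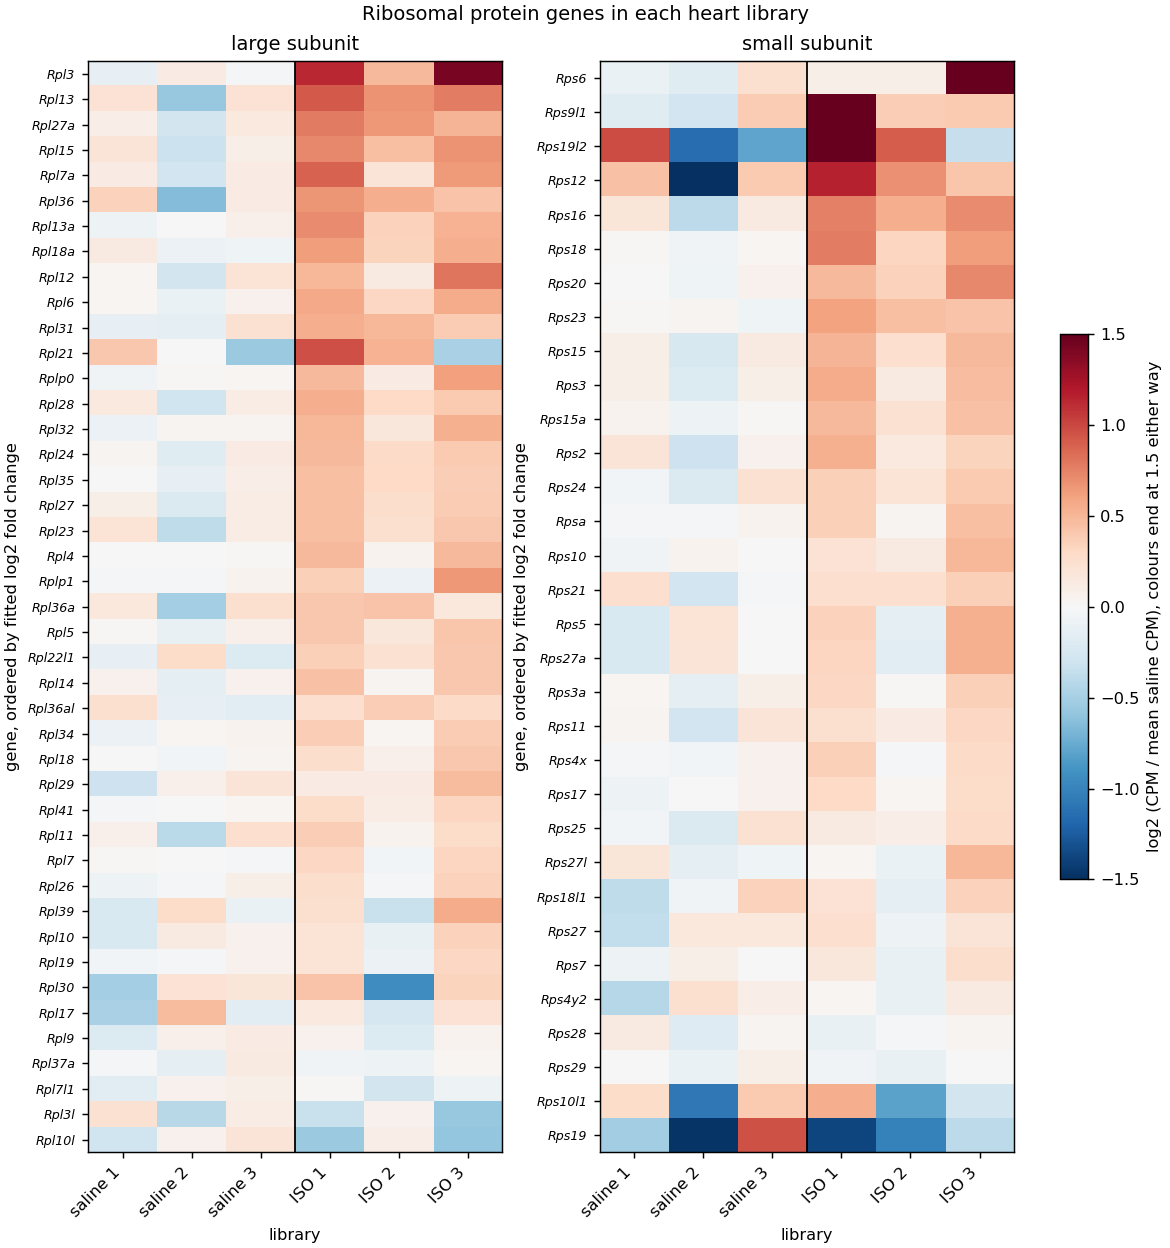
Level of the genes of the set, 1 of which is not shown (rows, ordered by fitted log2 fold change within each subunit) in each library (columns), as log2 of CPM over the gene's mean in saline; the colours end at 1.5 either way. ISO replicates 1 and 3 are mostly red, ISO replicate 2 is paler, and single dark cells mark Rps6 in ISO replicate 3 and Rps9l1 in ISO replicate 1.

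**Figure D2:**
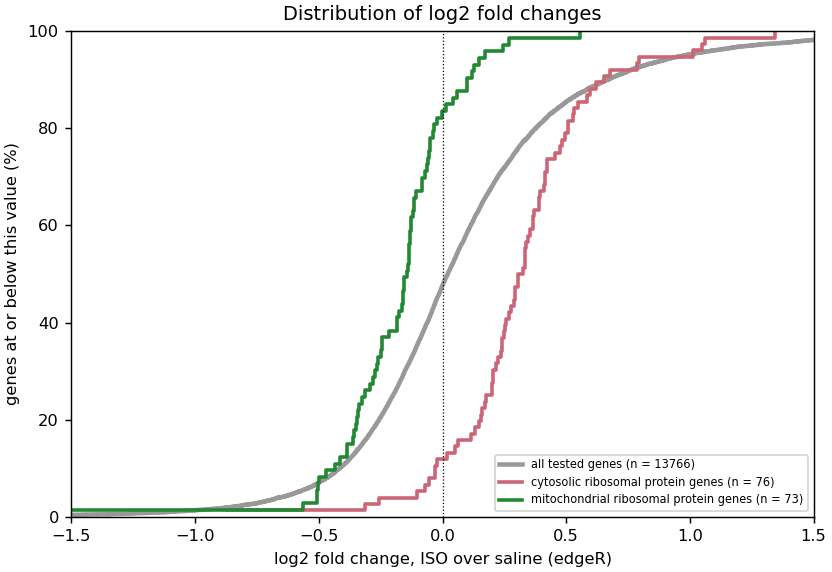
Share of genes (vertical axis, percent) at or below a given log2 fold change of ISO over saline (horizontal axis, drawn to 1.5 either way) for all 13766 tested genes, the 76 cytosolic and the 73 tested mitochondrial ribosomal protein genes. The curve of the cytosolic set lies right of that of all genes over most of its range and that of the mitochondrial set lies left of it, with medians of 0.32, 0.02 and −0.14.

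How many genes were called depended on the tool and on single libraries. DESeq2 called 19 of 76 higher and 0 lower, 12 of them of the large subunit, where it called 5.69% of all genes higher and 4.94% lower. The voom method of limma called 0, where it called 2.39% of all genes. At an unadjusted voom p under 0.05, 31 of 76 were higher and 0 lower, where 11.1% and 10.9% of all genes were. The rule stated for the series (a log2 change beyond 0.5 in either direction and p below 0.05 before adjustment) took 13 of 76 higher and 0 lower in the edgeR fit, where it took 8.67% and 4.5% of all genes. ISO replicate 2 was the nearest to saline: it was the lowest ISO library in 61 of 76 genes. The median of the set, relative to the mean of saline, was 0.38, 0.13 and 0.40 in ISO replicates 1 to 3, and the saline libraries lay between −0.09 and 0.09. Without ISO replicate 2, 13 of 76 were called higher by edgeR, where 3.5% of all genes were, and the median was 0.40. Leaving out any of the other 5 libraries left 0 called, with medians of 0.26 to 0.36. The share of all genes called higher was then 0.0996%, 0.0427% and 0.0497% without saline replicates 1, 2 and 3, 0.0645% without ISO replicate 1 and 1.23% without ISO replicate 3, the last close to the 1.47% with all libraries.

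The whole set took 1.71%, 1.53% and 1.73% of the named reads in saline hearts 1 to 3, and ISO hearts 1 to 3 gave 2.41%, 1.85% and 2.47%. The groups did not overlap, and the lowest ISO library, replicate 2, lay just above the highest saline library. The means were 1.65 ± 0.112% and 2.25 ± 0.344% (SD, n = 3 each), a ratio of 1.36. These shares are of unscaled reads. After TMM scaling, the CPM of the set summed to 17154.5 ± 917 in saline and 21554.8 ± 2434 in ISO, a ratio of 1.26. The balance between the subunits was alike in both groups: reads of the large subunit were 1.58 ± 0.0420 times those of the small subunit in saline and 1.58 ± 0.0235 times in ISO. Mitochondrially encoded genes took 25.3 ± 4.004% of named reads in saline and 22.8 ± 0.158% in ISO. With them left out of the total, the set took 2.14% to 2.34% in saline and 2.40% to 3.21% in ISO, a ratio of 1.31.

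**Figure D3:**
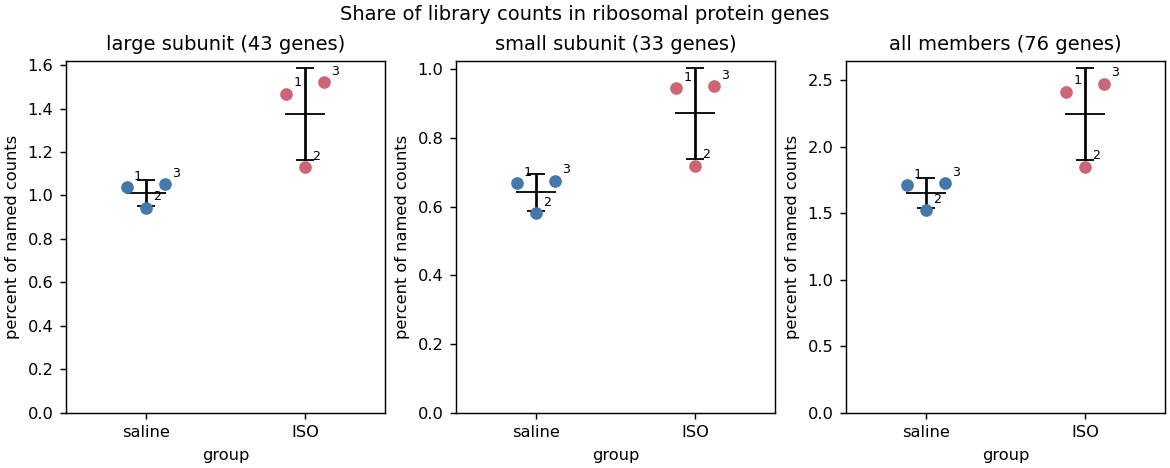
Percent of named reads (vertical axis) that fell on the large subunit, small subunit and all 76 genes in each library; points are libraries with their replicate number, long bars the mean and whiskers the SD (n = 3). In each panel the 3 ISO points lie above the 3 saline points, with ISO replicate 2 the lowest of its group.

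Among genes of the large subunit, 38 of 43 had a positive log2 fold change, and the median was 0.33. In 22 the ISO libraries lay above saline, as they did in 14.1% of all tested genes. Rpl3 (ENSRNOG00000016896) gave 172, 204 and 185 CPM in the saline hearts and 408, 262 and 500.2 CPM in ISO hearts 1 to 3, with no overlap. It was 2.09-fold higher in ISO, or 1.06 on the log2 scale (SE 0.22, edgeR adjusted p = 0.0450). The call lay close to the threshold. It held without ISO replicate 2 (log2 fold change 1.28, edgeR adjusted p = 0.0124) and was lost without any of the other libraries, with edgeR adjusted p of 0.0669 without ISO replicate 3 to 0.175 without saline replicate 3. The size moved less, from 0.84 to 1.28 on the log2 scale over the 6 fits, and voom gave an adjusted p of 0.0527.

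Rpl3l (ENSRNOG00000014641), the copy of Rpl3 used mainly in heart and skeletal muscle, did not share the direction. It gave 323, 208 and 299 CPM in saline and 218, 289.8 and 186 CPM in ISO hearts 1 to 3, and the groups overlapped (log2 fold change −0.25, SE 0.21, edgeR adjusted p = 0.51). Over the fits without single libraries the value stayed negative but moved from −0.45 without ISO replicate 2 to −0.13 without saline replicate 1 and −0.12 without ISO replicate 3. ISO replicate 2, where Rpl3 was lowest among ISO hearts, had the highest Rpl3l of that group. The ratio of Rpl3l reads to Rpl3 reads was 1.87, 1.02 and 1.62 in the saline hearts, against 0.536, 1.11 and 0.373 in the ISO hearts. It was thus at or above 1 in all saline libraries and below 1 in ISO replicates 1 and 3 only. The mean log2 ratio differed by −1.27 (two-sided exact permutation test, p = 0.2; adjusted p = 0.8 over 8 pairs), and 3 against 3 libraries cannot go below 0.1. The reads were not divided by transcript length, so a ratio of 1 does not mean equal numbers of transcripts.

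**Figure D4:**
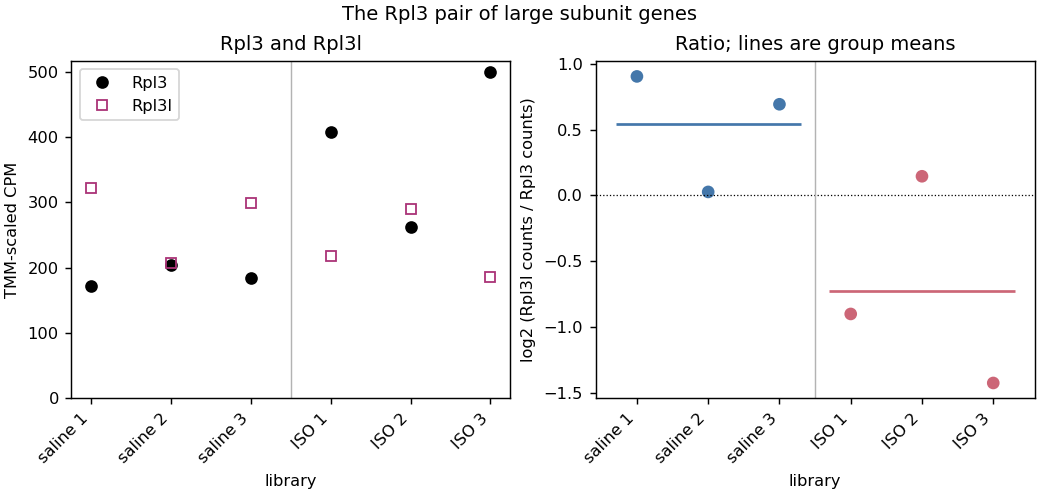
Left, CPM of Rpl3 and Rpl3l in each library; right, log2 of the ratio of their reads in each library, with lines at the group means of 0.54 in saline and −0.73 in ISO. Rpl3 lies above Rpl3l in ISO replicates 1 and 3, and Rpl3l lies above Rpl3 in the other libraries.

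The stalk, the flexible arm of the large subunit that recruits elongation factors, is represented by Rplp0, Rplp1 and Rpl12. Rplp0, which anchors the stalk, stood at 913, 952 and 967 CPM in saline and 1321, 1028 and 1450 CPM in ISO hearts 1 to 3, with no overlap (log2 fold change 0.42, SE 0.15, edgeR adjusted p = 0.154). Rplp1, an acidic stalk protein, stood at 564 to 597 CPM in saline and at 739, 540 and 903 CPM in ISO, so ISO replicate 2 lay below every saline library. edgeR and voom called none of the 3, of which 2 had an unadjusted edgeR p under 0.05, and DESeq2 called Rplp0 higher (adjusted p = 0.0420). Without ISO replicate 2, edgeR called Rplp0 as well (adjusted p = 0.0395). All 3 fold changes were positive, with a median of 0.42. At the unadjusted p, 12% of all tested genes were higher, and DESeq2 called 5.69% of all genes higher. The row of their acidic partner Rplp2 had too few reads to be among the 76. With rows that RefSeq names as its copies added, Rplp2 had 6682 reads and a log2 fold change of −0.03 (edgeR adjusted p = 0.952).

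Rpl5 and Rpl11 bind 5S ribosomal RNA and, when free, the p53 regulator MDM2. Rpl5 stood at 337, 309 and 352 CPM in saline and 441, 373 and 442 CPM in ISO, with no overlap (0.33, SE 0.12, edgeR adjusted p = 0.155). Rpl11 stood at 233, 167 and 262 CPM against 284, 229 and 267 CPM, with overlap, and had a log2 fold change of 0.24, which moved to 0.07 without saline replicate 2 and to 0.37 without saline replicate 3. edgeR, DESeq2 and voom called neither, and 1 of them had an unadjusted edgeR p under 0.05. At that p, 12% of all tested genes were higher.

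The remaining large subunit genes with the most reads were Rpl7, Rpl10, Rpl4 and Rpl41. Rpl4 was nearly constant in saline, at 452, 450 and 459 CPM (coefficient of variation 1.01%), and stood at 636, 471 and 633 CPM in ISO, above saline in every library (0.35, edgeR adjusted p = 0.19). Rpl7 was as steady in saline, at 520 to 532 CPM, with 651, 512 and 655 CPM in ISO, where replicate 2 fell below the saline range. Rpl41, which encodes a very short basic peptide, stood at 411 to 429 CPM in saline and 455 to 524 CPM in ISO, with no overlap. Rpl10, needed for the last step of large subunit maturation, overlapped, at 439 to 564 against 473 to 652 CPM. In all 4 genes ISO replicate 2 had the lowest ISO value.

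Rpl13 had the largest fold change of the large subunit after Rpl3 (0.79, SE 0.21, edgeR adjusted p = 0.0757). It stood at 240, 139 and 238 CPM in saline and 390, 328 and 350 CPM in ISO hearts 1 to 3, and saline replicate 2 was low. Rpl13a, known also for its part in silencing inflammatory messages, stood at 24.4, 25.7 and 27.1 CPM in saline and at 42.0, 32.6 and 37.0 CPM in ISO, with no overlap (0.53, SE 0.12, edgeR adjusted p = 0.0591). Without scaling Rpl13a was called (0.64, edgeR adjusted p = 0.0498). Rpl27a, chosen after its values were seen, stood at 182, 140 and 187 CPM against 292, 267 and 241 CPM (0.65, SE 0.14, edgeR adjusted p = 0.0529).

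Among genes of the small subunit, 29 of 33 had a positive log2 fold change and the median was 0.29. edgeR and voom called none. At an unadjusted edgeR p under 0.05, 11 were higher and 0 lower, against 12% and 10.9% of all tested genes. DESeq2 called 7 higher, against 5.69% of all genes. In 9 the ISO libraries lay above saline, as they did in 14.1% of all tested genes. Rps23, a protein of the decoding centre and chosen after its values were seen, came nearest to the threshold, at 211, 216 and 200.5 CPM in saline and 318, 286 and 281 CPM in ISO (0.49, SE 0.11, edgeR adjusted p = 0.0503). Rpsa, also known as a laminin receptor, stood at 547 to 577 CPM in saline and at 716, 574 and 760 CPM in ISO, so replicate 2 lay within the saline range.

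Rps3a stood at 392 to 458 CPM in saline and 436 to 552 CPM in ISO, and Rps4x, on the X chromosome in mammals, at 397 to 428 against 402 to 525 CPM. Both overlapped, with log2 fold changes of 0.24 and 0.22. Rps27a, made as a fusion with ubiquitin, stood at 219, 293 and 255 CPM in saline and 319, 227 and 369 CPM in ISO (0.26, edgeR adjusted p = 0.464).

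Other genes with an adjusted p under 0.1, chosen after their values were seen, had the same layout of libraries. Rps16 gave 336, 227 and 327 CPM in saline and 501, 432 and 486 CPM in ISO (0.67, SE 0.17, edgeR adjusted p = 0.068). Rps20, in the head of the small subunit, gave 214, 205 and 224 CPM against 300.2, 274 and 353 CPM (0.53, SE 0.13, edgeR adjusted p = 0.063). Rpl15 gave 221, 155 and 206 CPM against 320, 265 and 310 CPM (0.62, SE 0.16, edgeR adjusted p = 0.0691), and Rpl6 gave 286, 262 and 294 CPM against 417, 347 and 414 CPM (0.48, SE 0.12, edgeR adjusted p = 0.0688). In each of these genes every ISO library lay above every saline library.

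At the other end, 9 genes had a negative log2 fold change and none of them was called by edgeR, DESeq2 or voom, had an unadjusted edgeR p under 0.05 or was free of overlap. Besides Rps19, Rps10l1 and the copies Rpl3l, Rpl7l1 and Rpl10l, these were Rpl9, Rpl37a, Rps28 and Rps29, named after their values were seen. Rpl9 ranged from 283 to 356 CPM in saline and from 285 to 343 CPM in ISO, and Rpl37a from 262 to 315 against 273 to 294 CPM. Rps28 ranged from 38.1 to 47.8 against 40.4 to 44.8 CPM, and Rps29 from 189 to 215 against 187 to 204 CPM. Their log2 fold changes lay between −0.06 and −0.02, and those of Rpl9, Rpl37a and Rps28 turned positive without single libraries.

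Some of the largest fold changes came from single libraries. Rps6, the S6 kinase target, stood at 8.64, 8.18 and 10.98 CPM in saline and at 9.89, 9.84 and 50.8 CPM in ISO, so its fitted 1.34 on the log2 scale (SE 0.61, edgeR adjusted p = 0.231) came down to 0.09 without ISO replicate 3. Rps9l1 stood at 46.1 CPM in ISO replicate 1 and at 10.5 to 16.7 CPM in all other libraries, and its log2 fold change of 1.05 was 0.37 without that library. Rps19l2 ranged from 9.31 to 40.6 CPM within saline and from 16.3 to 69.8 CPM within ISO. Rps19, mutated in Diamond-Blackfan anaemia, stood at 41.3, 21.4 and 116 CPM in saline and 22.8, 29.5 and 45.2 CPM in ISO, and its −0.87 was the lowest value of the set (SE 0.54, edgeR adjusted p = 0.374).

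The table also holds rows that RefSeq names as copies of some of these genes. How alike their sequences are was not examined, and the part of the copies in such swings was not tested. Rps6 had no row that RefSeq names as its copy, and for Rps9 the only such row was Rps9l1 itself. The coefficient of variation within saline had a median of 13.2% over the 76 genes, was under 5% in 16 genes and over 20% in 17. Rps12, chosen after its values were seen, stood at 157, 39.3 and 152 CPM in saline, while the row that RefSeq names Rps12l8 stood at 96.6, 223 and 111 CPM. Their sum was 254, 263 and 264 CPM, a coefficient of variation of 2.08% against 57.4% and 48.2% for the rows alone. In ISO the sum was 397, 273 and 411 CPM, a coefficient of variation of 21.2% against 26.8% and 54.6% for the rows alone. Rpl30, also chosen after its values were seen, behaved in the same way with the row named Rpl30l2, with 1.64% for the sum against 25.9% and 47.2%. For Rps10 and Rps10l1 the sum varied by 2.27%, against 3.59% and 45.6% alone. Rps19 with Rps19l2 still varied by 60.4%, so its sum was not steady either. For other genes the sum varied more within saline than the gene's own row. Rps2, chosen after its values were seen, went from 17.2% to 19.5%, and Rps18 from 2.84% to 3.11%. A steadier sum was thus not general. Genes with such copies have uncertain rows, since the counting could split their reads.

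**Figure D5:**
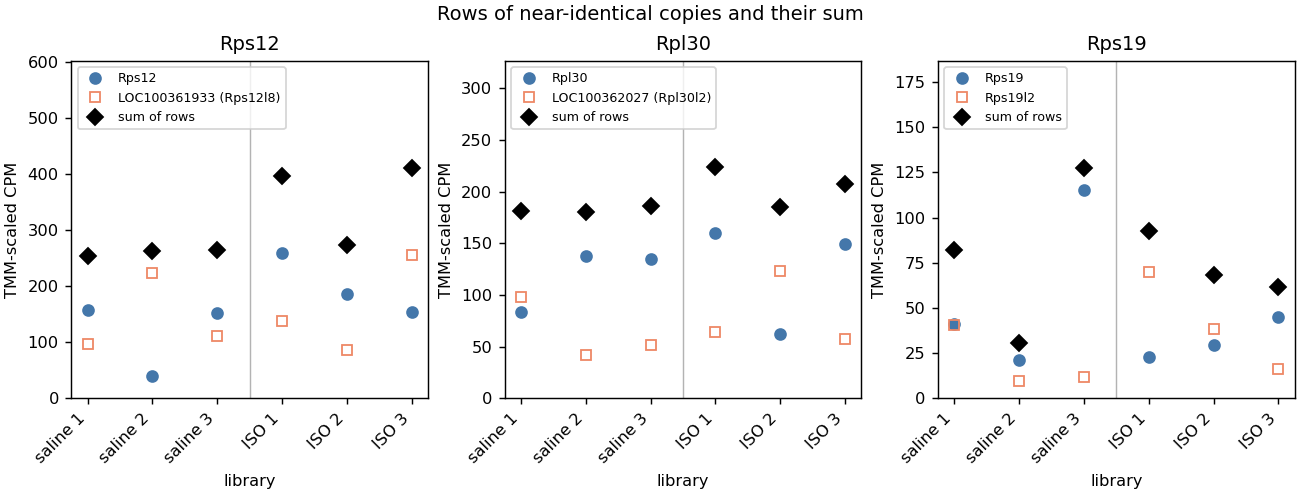
CPM in each library of Rps12, Rpl30 and Rps19, of a row that RefSeq names as a copy of each, and of their sum. In saline the sums of the first and second pair stay within 254 to 264 and 180 to 186 CPM while the single rows cross over, and the sum of the third pair ranges from 30.7 to 127 CPM.

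With rows that RefSeq names as copies or pseudogenes added to their parent, an alternative chosen after seeing the data, 80 genes were counted. They are not the same genes as in the main fit. Their median was 0.33, against 0.02 over all genes, and edgeR called 2 of the 80 higher and 0 lower. The called genes were Rpl3 (edgeR adjusted p = 0.0439) and Rps23 (edgeR adjusted p = 0.0496). The row of Rps23 was unchanged, and its edgeR adjusted p in the main fit was 0.0503. The share of all genes called in this fit is not given here, so the 2 calls cannot be set against a background.

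The set holds 7 tissue-restricted or second copies of ribosomal protein genes, of which edgeR, DESeq2 and voom called 0 and 2 had an unadjusted edgeR p under 0.05. Of these 7, 4 had a positive log2 fold change, the median was 0.02, and the groups did not overlap in 1, Rpl36al. Over all tested genes, 12% were higher at the unadjusted p, and in 14.1% the ISO libraries lay above saline. Rpl7l1 stood at 23.1, 26.9 and 27.4 CPM in saline and 26.2, 21.3 and 24.4 CPM in ISO. Rpl10l, a copy of Rpl10 best known from the testis, stood at 13.1, 16.8 and 18.4 CPM against 10.95, 17.26 and 10.73 CPM. Rps4y2 stood at 18.9 to 29.98 against 23.4 to 27.9 CPM. Rpl22l1, the copy of Rpl22, stood at 43.5, 57.3 and 41.2 CPM in saline and 60.8, 55.4 and 62.7 CPM in ISO (0.33, edgeR adjusted p = 0.21). A run of at least 8 pyrimidines near the start was found in 1 of the 5 second copies with a start in the table.

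The ratio of reads was compared in 8 pairs of related genes, and none passed after adjustment. The ratio of Rpl7l1 to Rpl7 was 0.0434, 0.0510 and 0.0527 in the saline hearts and 0.0402, 0.0416 and 0.0373 in the ISO hearts, with no overlap. Its mean log2 ratio differed by −0.30 (two-sided exact permutation test, p = 0.1, the smallest possible, adjusted p = 0.8). Rps27l and Rps27 differed by 0.01 and Rpl36al and Rpl36a by −0.05, both signs that turned when single libraries were left out. Rps27, a zinc finger protein, stood at 139 to 199 CPM in saline and 171 to 213 CPM in ISO, and Rps27l, a p53 target, at 21.2 to 26.5 against 21.8 to 33.1 CPM. Rpl36a stood at 44.4 to 74.3 against 70.3 to 84.7 CPM and Rpl36al at 55.9 to 74.2 against 74.7 to 80.7 CPM. Rpl39, which lines the exit tunnel, overlapped at 62.5 to 88.7 against 58.1 to 108 CPM, and its testis copy Rpl39l had 1 to 7 reads a library.

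Ribosomal protein genes are in common use as reference genes for qPCR. Of 6 that are often chosen (Rplp0, Rpl13a, Rpl32, Rps18, Rpl19 and Rpl4), 5 had all ISO libraries above all saline libraries. So had 31 of the 76 genes and 14.1% of all tested genes. The median log2 fold change of the 6 was 0.42, or 33.4% higher, against 0.32 for the 76. Rpl32 stood at 206, 226 and 225 CPM in saline and 309, 247 and 316 CPM in ISO (0.41, edgeR adjusted p = 0.111). Rps18 and Rpl19 are named as members of this list. Rps18 stood at 270, 259 and 273 CPM against 455, 333 and 414 CPM (0.58, edgeR adjusted p = 0.06). Rpl19 overlapped, at 327 to 353 against 316 to 417 CPM. None of the 6 was called by edgeR. DESeq2 called 4 of them higher, where it called 19 of the 76 genes and 5.69% of all genes higher.

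Of 10 genes mutated in Diamond-Blackfan anaemia, a failure of red cell production, 8 had a positive log2 fold change, with a median of 0.22. edgeR and voom called 0 of the 10, of which 4 had an unadjusted edgeR p under 0.05, all higher, and DESeq2 called 1 higher, Rpl15. At the unadjusted p, 12% of all tested genes were higher, and DESeq2 called 5.69% of all genes higher. The 4 genes on the X chromosome in mammals had a median of 0.21, and all 4 overlapped.

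Mitochondrial ribosomal proteins, which translate only the messages of the mitochondrial genome, mostly had negative values. Of 73 tested, 12 had a positive and 61 a negative log2 fold change, with a median of −0.14. None was called by edgeR or voom, 18 had an unadjusted edgeR p under 0.05, all of them lower, and DESeq2 called 6 lower and 0 higher. ISO lay below saline without overlap in 19 and above in 0, against 14.6% and 14.1% of all tested genes. At the unadjusted p, 10.9% of all tested genes were lower, and DESeq2 called 4.94% of all genes lower. The 2 members with the most reads, Mrpl12 and Mrpl3, stood at 173 to 216 against 139 to 224 CPM and 121 to 134 against 99.7 to 136 CPM, both with overlap.

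Translation factors and other genes known for the same kind of tract mostly had positive values too. Of 20 tested, 16 had a positive log2 fold change, the median was 0.21 and edgeR and voom called 0, with 7 higher and 1 lower at an unadjusted edgeR p under 0.05. DESeq2 called 4 higher and 0 lower, against 5.69% and 4.94% of all genes. At the unadjusted p, 12% of all tested genes were higher and 10.9% lower. Eef1a1, which delivers aminoacyl-tRNA to the ribosome, stood at 1083, 1201 and 1148 CPM in saline and at 2290.0, 1359 and 2477 CPM in ISO (0.84, SE 0.22, edgeR adjusted p = 0.077). Eef2, which moves the ribosome along the message, stood at 1540.0, 1355 and 1506 CPM against 2118, 1794 and 1938 CPM (0.41, SE 0.14, edgeR adjusted p = 0.126). In both genes the groups did not overlap. A run of at least 8 pyrimidines was found near the start of 9 of the 16 with a start in the table, against 8 of 58 mitochondrial ribosomal protein genes. The stricter form, with a C at the annotated start, was found in 0 of these 16 and in 2 of the 58 mitochondrial genes, against 18 of 58 in the set.

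Genes that build ribosomes had values around 0. Of 47 tested assembly factors, edgeR, DESeq2 and voom each called 1 lower and 0 higher. Over all genes, edgeR called 1.5% and DESeq2 4.94% lower. At an unadjusted edgeR p under 0.05, 3 were higher and 4 lower, against 12% and 10.9% of all tested genes. The ISO libraries lay below saline in 10 and above it in 5, against 14.6% and 14.1% of all tested genes. Of the 47, 19 had a positive log2 fold change and the median was −0.09. The gene called by edgeR was Heatr1, needed for the first processing of ribosomal RNA, which fell from 4.69, 4.62 and 5.36 CPM in saline to 2.57, 1.87 and 1.63 CPM in ISO (−1.27, SE 0.27, edgeR adjusted p = 0.0495). The call of Heatr1 was lost without scaling (edgeR adjusted p = 0.0644) and without any 1 library, with adjusted p of 0.0626 to 0.185. Of 29 tested genes of RNA polymerases I and III and their factors, edgeR and voom called 0, and the median was −0.04. At an unadjusted edgeR p under 0.05, 3 were higher and 4 lower, against 12% and 10.9% of all tested genes. DESeq2 called 1 higher and 2 lower, against 5.69% and 4.94% of all genes. Ubtf, an activator of polymerase I, stood at 85.5 to 116 CPM in saline and 93.6 to 110 CPM in ISO, and Maf1, a repressor of polymerase III, at 122.7 to 139 against 121 to 167 CPM.

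Of 31 tested regulators of ribosome production, 16 had a positive log2 fold change and the median was 0.01. edgeR and voom each called 1 higher, and edgeR called 1.47% of all tested genes higher. DESeq2 called 3 higher and 1 lower, against 5.69% and 4.94% of all genes. At an unadjusted edgeR p under 0.05, 7 were higher and 4 lower, against 12% and 10.9% of all tested genes. Castor1, an arginine sensor that restrains mTOR complex 1, rose from 8.91, 9.43 and 9.59 CPM to 18.3, 15.4 and 18.5 CPM (0.90, SE 0.14, edgeR adjusted p = 0.0205). It was called by all 3 tools and kept its call without ISO replicate 2 or 3, but not without ISO replicate 1 or any saline library (edgeR adjusted p of 0.0766 to 0.104). Of 17 tested chaperones and other components of the ribosome, 8 had a positive log2 fold change and edgeR and voom called 0. At an unadjusted edgeR p under 0.05, 1 was higher and 1 lower, against 12% and 10.9% of all tested genes. DESeq2 called 1 higher, against 5.69% of all genes. Among the 17, Rack1, a scaffold protein on the small subunit, stood at 343, 371 and 360 CPM in saline. In ISO it stood at 461, 362 and 508 CPM, with ISO replicate 2 again within the saline range.

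Within the set, genes with and without a run of at least 8 pyrimidines in the 30-base window had similar values. This is not a split by the tract of the message itself. A run can lie wholly before the annotated start, as in Rpl5 and Rpl13a. Rps3a and Rpl39, which have the stricter form, are among those without a run. The 34 with a run had a median log2 fold change of 0.34, 31 of them positive, and the 24 without one had a median of 0.27, 21 of them positive. The 34 ranged from −0.03 to 0.79, and the 24 from −0.87 to 1.34, since Rps6 and Rps19 belong to the latter.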

How the data were processed

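The authors sequenced 150 bp read pairs from heart RNA, used HISAT2 for alignment to the rat genome and featureCounts for counting, per the series description, with versions not given in the sources used here. A different build is named in the submitters' processing notes, mm10, although named rows carry rat Ensembl identifiers. The deposited values are raw read counts per gene, 1 column per library, and whether counting used strand is not given. Rows without a gene name (0.981% to 1.32% of reads) entered neither library sizes nor tests.

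ISO was compared with saline in edgeR 4.0.16 (R 4.3.3) by the quasi-likelihood test on all 6 libraries, with TMM scaling, edgeR's default filter (13766 genes left) and Benjamini-Hochberg adjustment over all of them; a call is an adjusted p under 0.05. DESeq2 1.42.0 and voom (limma 3.58.1) were alternatives. The scripts were checked on simulated counts. Counts limit precision, and 3 reads equal 0.175 to 0.204 CPM. No 2 libraries agreed within sampling noise. The genes, lists and tests were chosen with earlier results of these data known. The naming rule took called genes, the 10 with the most reads, the 5 largest and 5 smallest fold changes, fixed members, paralogue pairs, and from each comparison list up to 3 called or the 2 most abundant genes. Rpl6, Rpl9, Rpl12, Rpl15, Rpl19, Rpl27a, Rpl30, Rpl34, Rpl35 and Rpl37a are outside it and were chosen after values were seen. So were Rps2, Rps12, Rps16, Rps18, Rps20, Rps23, Rps28 and Rps29. Sequences are from RefSeq, assembly GRCr8; protein sequences were not used here. 1 gene of the set and 1 gene of a comparison list are not reported here by name, and they remain in all counts.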

Additional observations from a re-analysis of the deposited data

How the results depend on the processing

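The median log2 fold change of the 76 genes stayed positive under every alternative run, from 0.26 (without ISO replicate 3) to 0.43 (no scaling, where the median of all genes moved to 0.13), and the gap in the share of reads, 0.592 percentage points, ranged from 0.478 to 0.790 when single libraries were left out. Counts of calls moved far more. Genes called over the whole table, 409 by edgeR, numbered 1405 by DESeq2, 1812 by the series' rule (absolute log2 fold change over 0.5, unadjusted p under 0.05), 11 at an adjusted p under 0.01 and 12 to 838 with single libraries left out. Ribosomal protein genes called, 1 by edgeR, numbered 4 without scaling, 2 with no filter and 2 with a filter of 1 CPM in 3 libraries. Over all tested genes, 280 of 13766, 322 of 20094 and 212 of 13131 were called higher under these settings. In the main fit 203 of 13766 were. Ribosomal protein genes called numbered 19 by DESeq2, 0 by voom, 0 at an adjusted p under 0.01 and 13 by the series' rule. They numbered 2 with RefSeq copies added, where the genes counted also differ. With single libraries left out they numbered 0 to 13, where the 13 came without ISO replicate 2. Calls in the 6 comparison lists, 2 by edgeR, numbered 1 without scaling, 19 by DESeq2, 18 by the series' rule, 0 at an adjusted p under 0.01 and 0 to 7 with single libraries left out. The cause was not tested.

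The replicate number as a block left 28 genes called over the table, 0 ribosomal protein genes and 0 in the comparison lists. Deviations from the group mean had correlations of 0.09, −0.10 and 0.02 in same-numbered libraries and of −0.15 to 0.12 in the others. With 3 libraries per group, these values cannot decide whether the numbers pair the rats.

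Without scaling, Rps10l1 (0.0385) and Rpl7l1 (0.0086) changed sign. With single libraries left out, 6 to 13 of the 76 genes were negative (9 with all libraries), and 12 turned sign in some fit. Signs turned within −0.52 to 0.19 for Rps10l1, −1.27 to 0.051 for Rps19, −0.0257 to 0.219 for Rps27, −0.0266 to 0.285 for Rps27l, −0.0169 to 0.402 for Rpl39, −0.16 to 0.15 for Rps4y2, −0.12 to 0.058 for Rpl9, −0.093 to 0.038 for Rpl37a, −0.12 to 0.035 for Rps28, −0.18 to 0.38 for Rpl30, −0.15 to 0.36 for Rpl17, −0.0042 to 0.36 for Rps18l1 and −0.0949 to 0.118 for Ubtf. The difference in log2 ratio ranged from −0.15 to 0.27 for Rps27l to Rps27, −0.26 to 0.13 for Rpl36al to Rpl36a, −0.54 to 0.46 for Rpl39l to Rpl39 and −1.70 to −0.92 for Rpl3l to Rpl3.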
